A study of Mus musculus with 14 samples.

Results

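The 10 genes described here encode the enzymes and partner proteins of de novo lipogenesis in mouse liver, namely Acly, Me1, Acaca, Acacb, Fasn, Elovl6, Scd1, Scd2, Thrsp and Pnpla3. They were taken by symbol from the 17552 genes of the deposited gene table, and all 10 had at least 100 counts in the control and erythrodiol groups together, as did 13291 genes in all. Livers came from male Apoe-deficient mice on a background given as C57BL/6 by the labels and C57BL/6J by the methods, 8 weeks of age by the labels, that received a purified Western diet alone (control) or the same diet with erythrodiol at 10 mg/kg. Both groups thus shared the absence of apolipoprotein E, the sex and the Western diet, which contained cholesterol and palm oil, and RNA was taken after a short fast. The labels also give 8 weeks on the diets, whereas the methods of the study give 12 weeks, for mice 2 months old when used. The 8 weeks of age is therefore read as the age at the start of the diets, not at sampling. RNA of 2 or 3 mice was pooled, and 7 pools of 14 control mice and 7 pools of 15 erythrodiol mice were each sequenced as 1 library. The comparison asked which hepatic transcripts differed when erythrodiol, a pentacyclic triterpene of the olive, was added to the diet.

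De novo lipogenesis turns surplus carbohydrate into fatty acids. Citrate leaves the mitochondrion and is cleaved to acetyl-CoA, which is carboxylated to malonyl-CoA and condensed into palmitate with reducing power from NADPH. Palmitate is then elongated to stearate and desaturated to oleate, which enters triglycerides, phospholipids and cholesteryl esters. In liver, the genes of the pathway are classical targets of SREBP-1c, activated under insulin, of the carbohydrate-sensing factor ChREBP and of the oxysterol receptor LXR, and the pathway is most active after feeding.

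For every gene the table holds an expected count for the control group and another for the erythrodiol group, each added up over 7 libraries. Over all genes these came to 122889032 for control and 124686047 for erythrodiol. Levels are given as CPM, counts per 1000000 counts of the group. No value of a single library exists for a gene in these files, so the differences below have no replicate check and no test, and the 95% intervals cover counting error only. In bulk liver, a lower level from fewer cells of a type and from less RNA per cell cannot be told apart. Control libraries held 34856340 to 55244294 clean reads and erythrodiol libraries 47669656 to 48058606. In control replicates 1, 3 and 4, between 51.4% and 54.2% of clean reads mapped uniquely to genes, below the lowest erythrodiol library at 57.9%, and these 3 libraries supplied 39.4% of the control read pairs on genes. The gene values could not be given without them, and their part in the results was not tested. Summed levels of 8 hepatocyte markers were 105167 CPM in the control group and 104974 CPM with erythrodiol, of which Alb alone gave 80551 and 77520 CPM. The median log2 ratio of these 8 genes was 0.17. Tat, Cps1 and Pck1 were past 1.2-fold higher, at 0.38, 0.36 and 0.65, against 33.7% of all genes with at least 100 counts. Relative to genes of like length, a scale set out below, Apoa1, Apoa2 and Pck1 were past 1.2-fold higher, at 0.28, 0.27 and 0.50. Tat and Cps1 were not, at 0.24 and 0.09, and 9.53% of all genes were past it. Apoe itself was listed with 9403 counts in the control group and 8293 with erythrodiol. The table does not show which part of the Apoe gene these reads cover, so they do not check the genotype.

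Livers of both groups expressed the whole pathway, and 6 of its 10 genes had higher CPM with erythrodiol by more than 1.2-fold. These were Acly, Me1, Acaca, Acacb, Fasn and Elovl6, the enzymes from citrate cleavage to chain elongation, at 1.34-fold to 1.67-fold. Across all genes with at least 100 counts, 33.7% were past 1.2-fold higher, so that a ratio of this size was common in these libraries. Only Acacb was past 1.5-fold higher, against 2.55% of all genes, and no member was past 2-fold higher, against 0.218%. No member was past 1.2-fold, 1.5-fold or 2-fold lower, against 11.4%, 3.14% and 0.549% of all genes. The other 4 genes, both stearoyl-CoA desaturases, Thrsp and Pnpla3, lay between 0.876-fold and 1.06-fold. The median log2 ratio of erythrodiol to control was 0.45 over the members and 0.16 over all genes with at least 100 counts.

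The ratio between the groups moved with gene length, which bears on these mostly long genes. With genes parted into 10 classes by length, the shortest, of 333 to 1211 bases, had a median log2 ratio of −0.18, and the longest, of 6116 to 26655 bases, had one of 0.33. The 6 members past 1.2-fold were 3175 to 9938 bases long, and the genes nearest to each in length, about 250 on either side in order of length, had median log2 ratios between 0.20 and 0.36. Each member was therefore also set against these genes of like length, by the log2 ratio minus their median. On this scale Acacb and Me1 were past 1.2-fold higher, against 9.53% of all genes, and Scd2 was past 1.2-fold lower, against 17.6%. No member was past 1.5-fold or 2-fold on this scale, against 1.02% and 0.158% of all genes on the high side and 3.51% and 0.474% on the low side. The members' median relative log2 ratio was 0.16. Over the 10 members, Spearman's rho of the log2 ratio with gene length was 0.62, and that of the relative log2 ratio with length was 0.19, as a description of genes that share the same libraries. The cause of the rise with length was not tested.

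**Figure D1:**
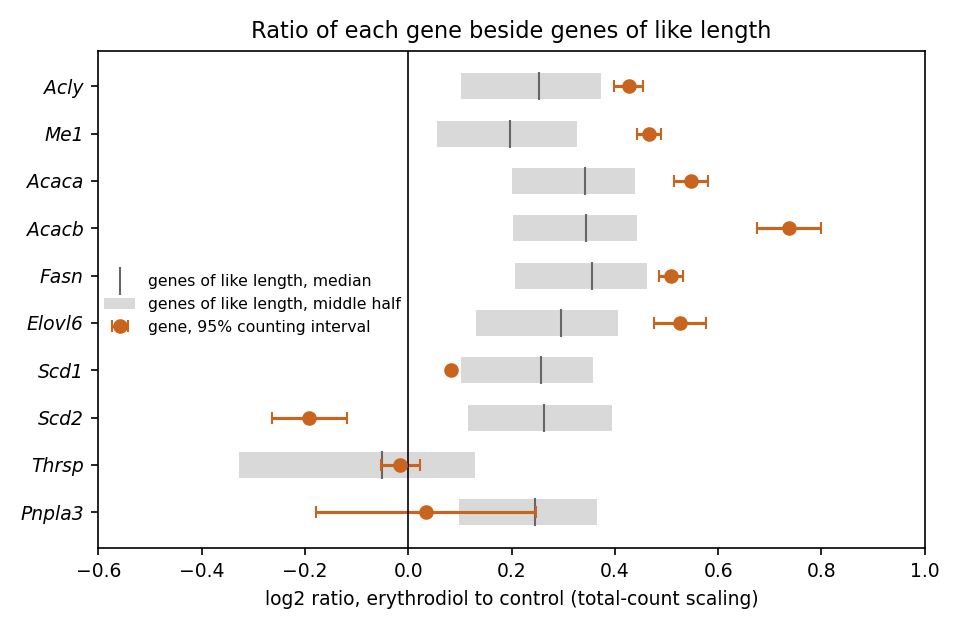
Log2 ratio of erythrodiol to control for each lipogenic gene, scaled by total counts, as a point with its 95% counting interval, beside a grey bar for the middle range (lower to upper quartile) of the genes of like length and a line at their median. The 6 genes past 1.2-fold higher lie to the right of their bars, from 0.43 to 0.74, Scd1, Scd2 and Pnpla3 lie to the left of theirs, and the bars themselves lie right of 0 for all members but Thrsp.

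Acly and Me1 supply the carbon and part of the NADPH. Acly, ATP citrate lyase, which makes cytosolic acetyl-CoA from citrate, lies on chromosome 11 of GRCm38 from 100476352 to 100528000. It had 17061 counts in the control group and 23269 with erythrodiol, or 31.4 and 42.2 CPM per kilobase of gene length. The ratio was 1.34-fold, with a counting interval of 1.32 to 1.37. Of the genes of like length, 16.0% had a higher ratio than Acly, and its relative log2 ratio was 0.17. Me1, cytosolic malic enzyme, which yields NADPH and pyruvate from malate, lies on chromosome 9 from 86581363 to 86695914. Its counts were 26258 and 36789, or 67.3 and 92.9 CPM per kilobase, a ratio of 1.38-fold (1.36 to 1.40). Of its neighbours in length 8.98% were higher, and the relative log2 ratio of 0.27 was just past the 1.2-fold line, which lies at 0.26. With neighbours matched on count as well as length, the relative log2 ratio of Me1 was 0.25, short of that line. Acly was thus past 1.2-fold higher by total counts and not relative to genes of like length.

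Acaca and Acacb encode the acetyl-CoA carboxylases, which make malonyl-CoA. The Acaca enzyme is cytosolic and serves synthesis, and the Acacb enzyme sits at the outer mitochondrial membrane, where its malonyl-CoA restrains fatty acid import for oxidation. Acaca, on chromosome 11 from 84129635 to 84401651, had 12589 counts in the control group and 18659 with erythrodiol. This was 11.7 and 17.1 CPM per kilobase, a ratio of 1.46-fold (1.43 to 1.49) and a relative log2 ratio of 0.20, with 5.99% of genes of like length higher. Acacb, on chromosome 5 from 114146321 to 114250761, had 3415 and 5775 counts, or 3.24 and 5.41 CPM per kilobase. Its ratio of 1.67-fold (1.60 to 1.74) was the largest of the 10 members on both scales. The relative log2 ratio of Acacb was 0.39, and 0.20% of genes of like length, a single gene, were higher. Per length, Acaca made up 78.3% of the pair in the control group (77.6 to 78.9) and 76.0% with erythrodiol (75.4 to 76.5), so the balance between the carboxylases was shifted a little towards Acacb. Acaca remained the more abundant of the pair in both groups.

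Fasn and Elovl6 build and lengthen the chain. Fasn, fatty acid synthase, which makes palmitate from acetyl-CoA and malonyl-CoA, lies on chromosome 11 from 120805958 to 120825166. It had 25703 counts in the control group and 37113 with erythrodiol, or 21.0 and 30.0 CPM per kilobase. The ratio was 1.42-fold (1.40 to 1.45). Fasn is the longest of the 10 genes, and its like-length median was the highest, at a log2 ratio of 0.36, which left a relative log2 ratio of 0.15 with 13.2% of genes of like length higher. Elovl6, the elongase that extends palmitate to stearate, lies on chromosome 3 from 129532386 to 129638495. Its counts were 5321 and 7776, or 7.28 and 10.5 CPM per kilobase, a ratio of 1.44-fold (1.39 to 1.49). Its relative log2 ratio was 0.23, with 6.99% of genes of like length higher. Of the 6 genes past 1.2-fold higher, Fasn thus had the smallest ratio once genes of like length were taken as the base.

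Scd1 and Scd2 lie in 1 cluster of Scd genes on chromosome 19 and encode stearoyl-CoA desaturases, which place the double bond that turns stearate into oleate. Scd1, from 44394450 to 44407709, is the main desaturase of mouse liver, and Scd2, from 44293676 to 44306864, is known best from brain and from liver in early life. Scd1 had 957595 counts in the control group and 1028748 with erythrodiol, which ranked it 46th and 40th of all genes per length. At 1609 and 1703 CPM per kilobase it held 0.779% and 0.825% of all counts. The ratio of Scd1 was 1.06-fold (1.06 to 1.06), a log2 ratio of 0.08 by total counts that turned to −0.17 relative to genes of like length and was also below 0 under the other scalings that were tried. Scd2 had 3331 and 2960 counts, or 4.97 and 4.35 CPM per kilobase. The ratio was 0.876-fold (0.833 to 0.921), and the relative log2 ratio was −0.45, with 97.0% of genes of like length higher. Scd2 was the member furthest to the low side, and it was lower with erythrodiol under every scaling that was tried. Part of the Scd2 counts could be reads of Scd1, as set out below, which was not tested. Scd1 made up 99.7% of the pair per length in both groups. Neither desaturase was thus past 1.2-fold higher, unlike the 6 enzymes before them in the pathway.

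Thrsp and Pnpla3 are lipogenic genes outside the enzymatic chain. Thrsp, also called Spot 14, is a small thyroid hormone-responsive protein that modulates lipogenesis, and lies on chromosome 7 from 97412933 to 97417550. It had 11745 counts in the control group and 11792 with erythrodiol, or 85.0 and 84.1 CPM per kilobase. The ratio was 0.990-fold (0.964 to 1.02), and its log2 ratio of −0.02 turned to 0.04 relative to the short genes near it in length. Pnpla3, a lipid droplet protein with hydrolase and acyltransferase activity, lies on chromosome 15 from 84167776 to 84189521. With 357 and 371 counts it was the scarcest member, at 0.648 and 0.664 CPM per kilobase. Its ratio of 1.02-fold had an interval of 0.883 to 1.19, and the log2 ratio of 0.03 turned to −0.21 relative to genes of like length. For both genes the interval included equal levels, so a difference by total counts was not detectable at this depth.

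**Figure D2:**
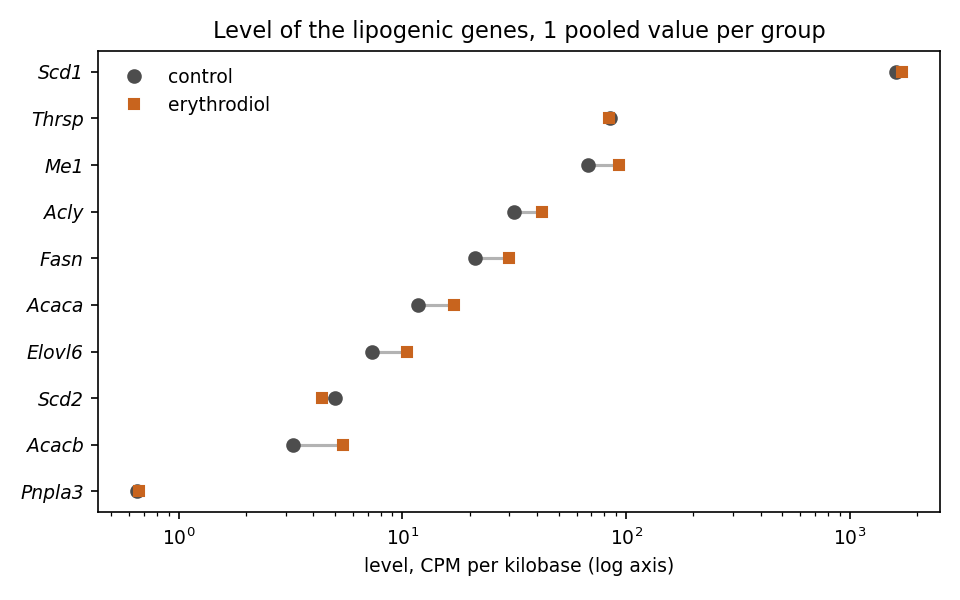
Level of each lipogenic gene in CPM per kilobase, on a log axis, in the control and erythrodiol groups, with 1 summed value per group. Scd1 lies more than 10-fold above every other member in both groups and Pnpla3 lies lowest, at 0.648 and 0.664.

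Levels spanned from Pnpla3 to Scd1, and Scd1 alone made up most of the lipogenic counts. The 10 members together held 0.865% of all counts in the control group and 0.941% with erythrodiol, and the 9 members other than Scd1 held 0.0861% and 0.116%. In the control group the order per length was Scd1, Thrsp, Me1, Acly, Fasn, Acaca, Elovl6, Scd2, Acacb and Pnpla3. With erythrodiol Me1 stood above Thrsp and Acacb above Scd2, and the other places were the same. The rank of Acacb among all genes per length went from 7865 to 6614 and that of Scd2 from 6467 to 7315. Spread between livers is not known for these levels, so neighbours in this order cannot be told apart beyond counting error.

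**Figure D3:**
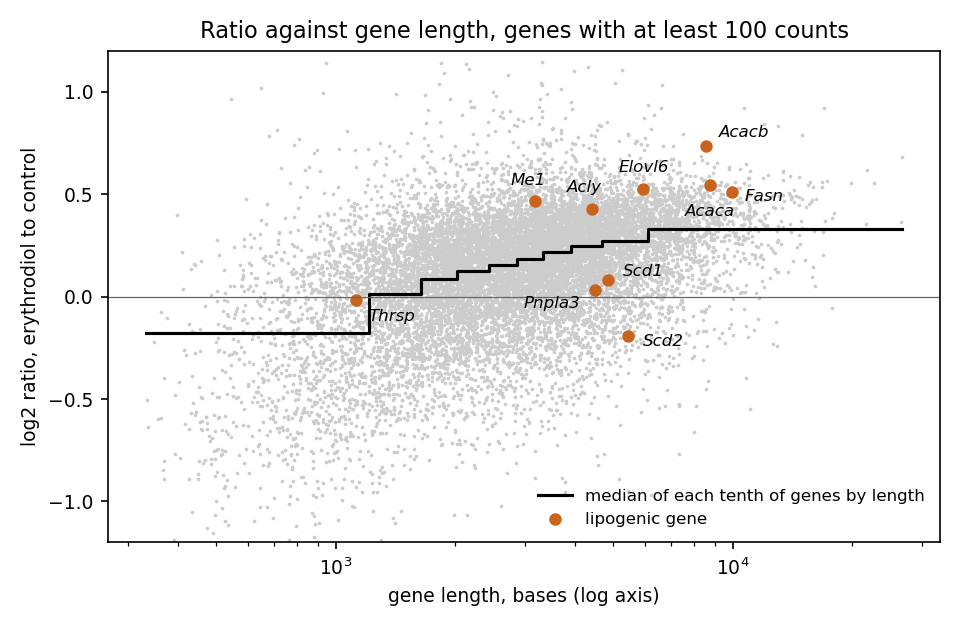
Log2 ratio of erythrodiol to control against gene length (log axis, bases) for the genes with at least 100 counts, with the lipogenic genes named and a line at the median of each of 10 classes of length. The line climbs from −0.18 to 0.33, Acacb lies well above it and Scd2 well below it, and 53 genes lie outside the plotted range.

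The genes that control lipogenic transcription did not move as 1 block. Of 20 such genes, 11 were past 1.2-fold higher and 1 was past 1.2-fold lower, against 33.7% and 11.4% of all genes. Relative to genes of like length 2 were higher and 1 lower, against 9.53% and 17.6% of all genes. The median log2 ratio of 0.31 became 0.10 on the relative scale. Mlxipl, which encodes ChREBP, had 39373 counts in the control group and 60749 with erythrodiol, a log2 ratio of 0.60. Irs2, an insulin receptor substrate, had 1293 and 2079 counts, a log2 ratio of 0.66. Both were past 1.2-fold higher on the relative scale as well, at 0.39 for Mlxipl and 0.43 for Irs2. Srebf1, which encodes SREBP-1c, had 25288 and 28291 counts, a log2 ratio of 0.14 that turned to −0.11 relative to genes of like length. Nr1h3, which encodes LXRα, was at 0.06 by total counts and −0.01 on the relative scale, and Med17, a Mediator subunit, was at 0.01. Insig1 and Insig2 retain the SREBP escort protein in the endoplasmic reticulum. Insig1 was at a log2 ratio of 0.29, or 0.14 relative to genes of like length, while Insig2 had 27992 and 18422 counts, a log2 ratio of −0.62, the lowest of the list.

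Genes that feed the pathway lay closer to the median of all genes. Of 11 genes of sugar supply, 4 were past 1.2-fold higher, near the 33.7% of all genes, and 1 lower, against 11.4%. Relative to genes of like length 0 were higher and 1 lower, against 9.53% and 17.6%, and the median log2 ratio of 0.17 became −0.07. Pklr, liver pyruvate kinase and a classical ChREBP target, had 31094 and 41101 counts, a log2 ratio of 0.38. Dlat, a pyruvate dehydrogenase subunit, was at 0.41, and its partner subunit Pdhb at −0.06. Khk, the ketohexokinase that admits fructose, was lowest at −0.27. Among 11 genes of citrate and NADPH supply, 3 were past 1.2-fold higher and 1 lower, against 33.7% and 11.4% of all genes, with a median of 0.17. On the relative scale 1 was higher and 2 were lower, against 9.53% and 17.6%, with a median of 0.02. Slc25a1, the mitochondrial citrate carrier, had 18354 and 24353 counts, a log2 ratio of 0.39, and Tkt, transketolase, was at 0.35. Mdh1, cytosolic malate dehydrogenase, which makes the malate that Me1 uses, had 84311 and 52164 counts, a log2 ratio of −0.71, and Idh1, cytosolic isocitrate dehydrogenase, was at −0.18.

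Among 11 partners and modifiers of the lipogenic enzymes, 4 were past 1.2-fold higher, near the 33.7% of all genes, and 1 lower, against 11.4%, with a median log2 ratio of 0.17. Relative to genes of like length 0 were higher and 1 lower, against 9.53% and 17.6%, with a median of 0.02. Mid1ip1, a paralogue of Thrsp that promotes acetyl-CoA carboxylase polymerisation, had 3789 counts in the control group and 4894 with erythrodiol, a log2 ratio of 0.35. Prkaa2, the catalytic AMP-activated kinase subunit that phosphorylates and inhibits the carboxylases, was highest by total counts at 0.52. Relative to genes of like length Prkaa2 was at 0.18, and Mid1ip1 was highest at 0.24. Aasdhppt, which attaches the phosphopantetheine arm that fatty acid synthase needs, was lowest at −0.49, and Mlycd, which degrades malonyl-CoA, was at −0.08.

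Downstream of the members, 14 of 16 genes of fatty acid activation, elongation and desaturation had at least 100 counts, and 11 of these were past 1.2-fold higher and 0 past 1.2-fold lower, against 33.7% and 11.4% of all genes. On the relative scale 5 were higher and 0 lower, against 9.53% and 17.6%. Their median log2 ratio was 0.33, or 0.19 relative to genes of like length. Fads1 and Fads2 encode the desaturases of polyunsaturated fatty acids. Fads1 had 36633 counts in the control group and 61768 with erythrodiol, a log2 ratio of 0.73, and Fads2 had 30137 and 51362, a log2 ratio of 0.75. Both were thus higher by more than Acacb relative to genes of like length, at 0.51 for Fads1 and 0.71 for Fads2. Elovl3, an elongase of saturated chains, was at −0.05 by total counts, and Acsl5, an acyl-CoA synthetase, at 0.04, or −0.12 relative to genes of like length. Of 17 genes of triglyceride synthesis and storage with at least 100 counts, out of 19, 4 were past 1.2-fold higher and 5 lower, against 33.7% and 11.4% of all genes, and on the relative scale 3 were higher and 5 lower, against 9.53% and 17.6%. Their median of 0.18 became −0.04 on the relative scale. Lpin1 and Lpin2, phosphatidate phosphatases, were at 0.69 and 0.62, while Plin5, a lipid droplet coat protein, was at −0.37 and Mogat1, a monoacylglycerol acyltransferase, at −0.90 with 271 and 147 counts.

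Cholesterol synthesis, which shares acetyl-CoA and SREBP control with lipogenesis, was the list furthest to the high side. Of its 17 genes, 16 were past 1.2-fold higher by total counts, against 33.7% of all genes, and 15 relative to genes of like length, against 9.53%, with medians of 0.63 and 0.39. Sqle, squalene epoxidase, was highest at a log2 ratio of 0.91, followed by Idi1, isopentenyl diphosphate isomerase, at 0.87. Pmvk and Mvk, the kinases of the mevalonate chain, were lowest at 0.25 and 0.38. The median of the lipogenic members, at 0.45 and 0.16, lay below that of this list on both scales.

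**Figure D4:**
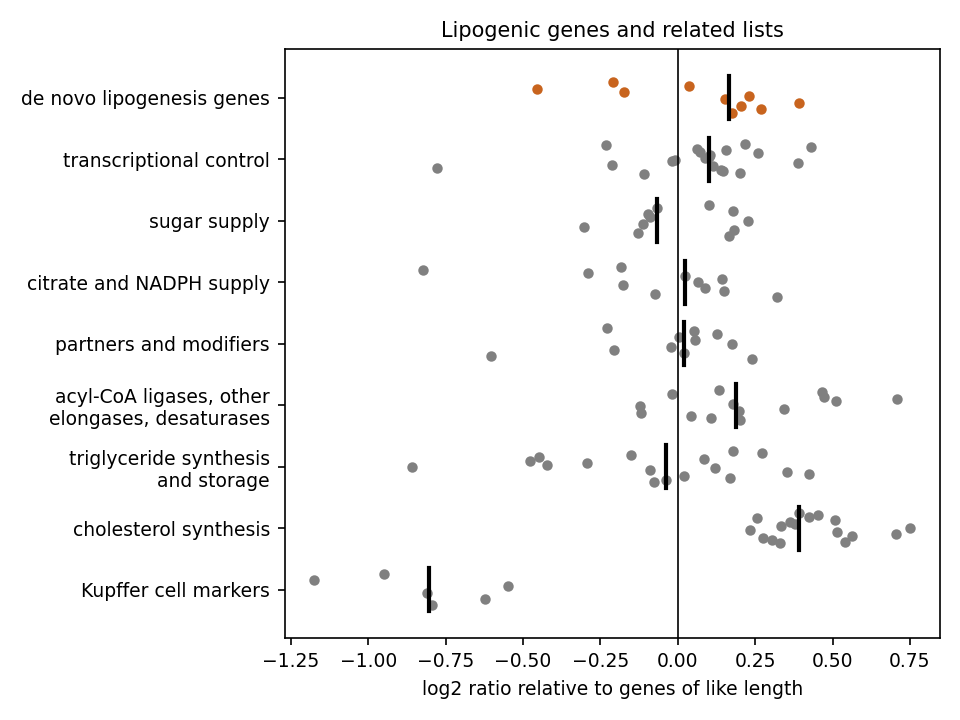
Log2 ratio of erythrodiol to control relative to genes of like length for the lipogenic genes, each related list and the Kupffer cell markers, with 1 point per gene and a bar at the list median. The cholesterol synthesis list lies highest with a median of 0.39, and the lipogenic members have a median of 0.16.

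Markers of other cells were compared because lipogenic genes are also expressed in fat. The 7 adipocyte markers summed to 16.8 CPM in the control group and 10.3 with erythrodiol. Most of this came from Fabp4, with 1401 and 834 counts, a log2 ratio of −0.77, and Cfd, with 416 and 160 counts, a log2 ratio of −1.40. Nnat went the other way, with 199 and 255 counts, a log2 ratio of 0.34. Adipoq, Lep, Plin1 and Retn had few counts, at 28, 2, 5 and 10 in the control group and 25, 1, 7 and 4 with erythrodiol. The part of fat in the counts of the lipogenic genes was not tested. All 6 Kupffer cell markers were past 1.2-fold lower, against 11.4% of all genes, with log2 ratios from −1.07 to −0.48, and their summed level was 869 CPM in the control group and 535 with erythrodiol. Their part in the values of the lipogenic genes was not tested.

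The members share few features that the choice by symbol did not use. Acly, Acaca and Fasn lie on chromosome 11, and Scd1 and Scd2 share a gene cluster. Promoter sequences of 250 bases before to 50 after a listed start were taken from RefSeq on GRCm38.p6 for 8 of the 10 genes, all but Scd1 and Scd2, with 9 promoters since Me1 has a pair of them. Both strands were searched for letters that factors of lipogenic promoters are known to bind. The NF-Y box, CCAAT, was found for 6 of 8 genes and in 37.4% of all 32851 promoters of the same length. For Me1 it was found only in the window that starts at 86687228. Member counts are per gene and the shares per promoter, so they are not fully alike. The Sp1 box, GGGCGG, was found for 3 of 8 genes and in 35.7% of all promoters. The sterol regulatory element, spelled TCACNCCAC, the E-box CACGTG and the LXR element were found in 0 of the 9 windows, against 1.24%, 7.15% and 0.0152% of all promoters, which says only that these exact letters are not in these windows. The upstream stretches of Fasn and Acly are shown because they hold the most matches of each found box, 5′ to 3′ on the minus strand, with the matched letters of either strand in capitals. That of Fasn is chr11:120824548-120824797, which lies inside the annotated span of the gene, and holds 3 NF-Y boxes, of which a pair overlap on opposite strands. That of Acly is chr11:100528001-100528250 and holds 4 Sp1 boxes. Neither stretch overlaps an exon of its gene in GENCODE M21.
Fasn: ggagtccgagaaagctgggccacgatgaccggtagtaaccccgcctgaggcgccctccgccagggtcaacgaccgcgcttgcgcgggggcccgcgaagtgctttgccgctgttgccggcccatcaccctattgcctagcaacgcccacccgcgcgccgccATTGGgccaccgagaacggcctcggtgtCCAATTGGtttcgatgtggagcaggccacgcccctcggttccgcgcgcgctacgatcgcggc
Acly: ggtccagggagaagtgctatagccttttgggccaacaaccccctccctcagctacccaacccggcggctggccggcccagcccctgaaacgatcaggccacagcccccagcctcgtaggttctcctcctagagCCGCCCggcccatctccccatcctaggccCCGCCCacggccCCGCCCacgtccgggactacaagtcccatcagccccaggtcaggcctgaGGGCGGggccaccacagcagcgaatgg
Within 50 bases after the start, the Acly window also holds 1 NF-Y box, which is not in the printed stretch. The bearing of these letters on the ratios was not tested. The listed starts of Acaca and Acacb are internal ones, so those windows are not the first promoters of the genes. The Fasn window and the Me1 window that starts at 86687228 also lie inside the annotated spans of their genes. For Thrsp, 180 of the 250 upstream bases lie in exons of the gene in GENCODE M21. The NF-Y matches of these genes are thus not all in plain upstream sequence.

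Of the transcripts that the study assembled from all libraries together and listed as new coding forms, 10 came from 5 of the 10 members, against 35.8% of the genes with at least 100 counts that have any. Acaca had 5 of them, of 54 to 56 exons, Scd2 had 2, and Acacb, Pnpla3 and Scd1 had 1 each. Their exon junctions were compared only with those that GENCODE M21 lists under the same gene. Most were among these, and of 52 junctions of the Acacb form 1 was not. The forms of Scd2 differed most, with 3 of 5 junctions of the longer form not listed under Scd2. That form runs from 44293676 to 44346743, past the end of Scd2 to the end of Scd4. Whether those junctions are listed under Scd4 was not examined. The shorter Scd2 form, of 2 exons, runs on chromosome 19 from 44257548 to 44401878, across Scd2 and into Scd1. Its only junction is not listed under Scd2. Only 16 genes had a deposited differential splicing event, beside 17552 genes in the gene table. No member was among them, which at so small a share says nothing about the members.

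Reads of some members can also match other genes. Of the 100-base windows of the longest coding transcript of Acaca, 42.8% are found letter for letter in Gm5182, and of those of Me1, 14.5% are found in Gm7049 or Gm7329. These 3 gene models are not in the deposited table, so reads from them could be counted on Acaca or Me1, and the values of both are uncertain to that extent. For Scd1, 2.66% of windows are shared, with Scd2 and Scd3 among others, and for the other 7 members under 1%. For Pnpla3 the transcript searched had 1313 bases, against a gene length of 4484 bases, so most of its length was not searched. Scd1 and Scd2 were the only members whose counts were not whole numbers, as arises where reads are shared out between similar transcripts. Scd1 had 957595 counts in the control group and 1028748 with erythrodiol, beside 3331 and 2960 for Scd2. Reads of Scd1 shared out to Scd2 could thus make up part of the Scd2 counts. The Scd2 ratio and its share of the pair are uncertain to that extent, which was not tested.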

How the data were processed

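Liver RNA of 14 pools, 7 per group, was sequenced as paired 100-base reads on BGISEQ-500. Per the labels and methods, the authors mapped reads with HISAT, assembled transcripts with StringTie and Cufflinks, called variants with GATK, and counted reads on transcripts with Bowtie2 and RSEM. Versions are not given in the sources used here. The authors deposited 1 expected count per gene and group, not normalized, with the gene length, and per library counts of reads and the percent of them mapped to genes. The authors' deposited log2 ratio, p-value and q-value columns, from a table named for DEGseq that compares the pooled reads of the groups, were not used.

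Expected counts were divided by the group's total, and the log2 of the erythrodiol over the control value is the log2 ratio. Counts were not rounded for the ratios and levels, since no count model was fitted. They were rounded to whole numbers for the intervals and for the edgeR and DESeq2 factors named below. Intervals are exact conditional binomial (Clopper-Pearson) intervals at 95%. Levels are these scaled counts per kilobase of the deposited gene length. The relative log2 ratio subtracts the median over about 250 genes on either side in order of length, drawn from genes with 100 counts or more over both groups, the gene itself left out. With 1 value per group there is no test, so "past 1.2-fold" replaces a call and is set beside the share of all genes past it. The design had foreseen a count test that only values per library would have allowed.

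Named genes are all members, the 2 highest and 2 lowest of each related list, 7 set genes and Apoe, of which 1 gene is not reported here. Plin2, whose symbol occurs more than once, was matched by gene ID. Members, lists and markers were chosen with earlier results of these data known. The computation was tested on simulated data. Alternatives were median centring, the TMM factors of edgeR 4.0.16, the size factors of DESeq2 1.42.0, totals without the 20 most abundant genes, a pseudocount, other windows and minimum counts, and members left out. Computation ran in R 4.3.3 and in Python 3.11.15 with scipy 1.17.1, pandas 2.3.3, numpy 2.4.6 and matplotlib 3.10.9.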

Additional observations from a re-analysis of the deposited data

Results flagged for a closer look

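Control replicate 3 stood apart from the other 6 control libraries, with 64.3% of its clean reads mapped to genes, by Dixon's rule for a sample far from its group. Chance sets aside about 1 in 20 groups under this rule, and 6 groups of values were examined. This library also had the fewest clean reads of the control group, 34856340, and supplied 9.12% of its read pairs on genes. Its part in the sums of the lipogenic genes could not be computed.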

How the results depend on the processing

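No paired analysis was possible because gene values are sums over each group, and for the same reason no replicate could be left out and no batch examined. The members' median log2 ratio of 0.45 was 0.28 when all genes were centred on their median, which lay at 0.16, 0.29 with TMM factors, 0.30 with DESeq2 size factors, 0.36 with totals that left out the 20 most abundant genes and 0.16 relative to genes of like length. The number of members past 1.2-fold higher was 2 relative to genes of like length. It was 6 under the other scalings, which do not take gene length into account. The number past 1.2-fold lower was 1, Scd2, under centring, like length, TMM, DESeq2 and the totals without 20 genes. Centring changed the shares of all genes past 1.2-fold from 33.7% higher and 11.4% lower to 10.9% higher and 20.2% lower. These shares were 11.5% and 19.9% with TMM, 12.6% and 19.1% with DESeq2, and 20.7% and 15.5% with the totals without 20 genes. With neighbours of like length and like count the members' relative median was 0.12 in place of 0.16. Medians of the related lists under centring and relative to like length were 0.14 and 0.10 for transcriptional control, 0.0069 and −0.068 for sugar supply, 0.0031 and 0.023 for citrate and NADPH supply, 0.0037 and 0.019 for partners and modifiers, 0.17 and 0.19 for fatty acid activation, elongation and desaturation, 0.018 and −0.039 for triglyceride synthesis and storage, and 0.47 and 0.39 for cholesterol synthesis. Of 110 values of single members under an alternative, 54 lay outside the counting interval and 0 changed sign for a member past 1.2-fold, whereas log2 ratios ranged from −0.17 to 0.08 for Scd1, from −0.18 to 0.04 for Thrsp and from −0.21 to 0.03 for Pnpla3. The cause of these shifts was not tested. Pnpla3, with the fewest counts, had the widest counting interval of the members.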

Other observations

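Markers of the other liver cells, with no lipogenic role assumed, had median log2 ratios of −0.23 for 5 lipid-associated macrophage genes, 0.00 for 5 stellate cell genes, −0.42 for 4 bile duct genes, −0.08 for 4 sinusoidal endothelial genes and 0.03 for 5 lymphocyte genes. By the same total-count scaling the median of all genes was 0.16. Relative to genes of like length the medians were −0.37, −0.16, −0.51, −0.19 and 0.04, in the same order. Among the hepatocyte genes, Pck1, the gluconeogenic enzyme that is lowered by feeding, had 109728 counts in the control group and 174872 with erythrodiol. Pck1 was singled out after its value was seen.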
